A study of Mus musculus with 7 samples.

Results

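The Toll-like receptors Tlr1, Tlr2, Tlr3, Tlr4, Tlr6, Tlr7, Tlr8, Tlr9 and Tlr13 and their shared adaptor Myd88 were followed across EMT6 mammary tumors that had grown under αPD-L1 antibody. These 10 genes were taken by symbol from a table of 53465 genes, and all 10 passed the filter on low counts that left 15645 genes for testing. EMT6 cells, a mammary carcinoma line from Balb/c mice, were injected (500000 per mouse) orthotopically into the fat pad of females aged 6 to 8 weeks. The 3 EMT6-P tumors received isotype control antibody and the 3 EMT6-PTR tumors αPD-L1 antibody, each at 250 μg per mouse every 3 days from day 1 until the institutional endpoint. One further library (n = 1) came from a metastasis of the αPD-L1-treated, resistant variant, which the sample labels write as PDR. All tumors derive from 1 cell line, and the labels do not say whether the replicates came from separate mice. The study describes its replicates in general as technical where nothing else is said, so that the libraries are called tumors here by their labels only. The p-values set a difference against the spread between libraries, which need not be a spread between mice.

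Toll-like receptors recognize microbial products and nucleic acids, at the cell surface for lipids and proteins and inside endosomes for RNA and DNA. All of the receptors here except Tlr3 signal through Myd88, which recruits kinases of the IRAK family and leads to NF-κB and to transcription of inflammatory cytokines. Macrophages, neutrophils and dendritic cells are the main cells that carry them in a tumor, although fibroblasts, endothelium and carcinoma cells hold some of them too. RNA was measured in whole tumor tissue, in which fewer cells of a type and less RNA per cell cannot be told apart.

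Libraries held 20430110 to 25213472 estimated counts, and single members held between 46 (Tlr9 in the metastasis) and 3436 counts (Myd88 in the metastasis). The epithelial keratin Krt8 was at 1755 to 1898 CPM (counts scaled to library size, with upper-quartile factors) in the EMT6-P tumors and at 505 to 1720 CPM in the EMT6-PTR tumors. EMT6-PTR replicate 3 stood apart from the other primary tumors. Its summed carcinoma markers (Krt8, Krt18, Krt19, Epcam and Cdh1) were at 595 CPM against 2103 to 2347 CPM in the other 5, and its summed fibroblast markers at 21446 CPM against 5749 to 9442 CPM. The 4 general leukocyte markers summed to 314 CPM there and to 461 to 569 CPM elsewhere among the primary tumors. Libraries of 1 group also differed in muscle RNA: 5 skeletal muscle markers summed to 9.02 to 584 CPM in EMT6-P and 3.52 to 3323 CPM in EMT6-PTR. In EMT6-PTR replicate 2, 13.8% of counts fell on CT010467.1, against 0.433% to 1.35% in the other libraries. The metastasis carried lung epithelial RNA: Sftpa1, Sftpb, Sftpc, Scgb1a1 and Foxj1 summed to 7336 CPM there, and to 1.00 to 4.43 CPM in the primary tumors. Its 7 neutrophil markers summed to 3067 CPM against 25.2 to 60.3 CPM in the primary tumors, with S100a8, S100a9, Csf3r and Cxcr2 each higher than in all of them.

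The genes lie apart in the genome, except that Tlr1 and Tlr6 are neighbors on chromosome 5 of GRCm38 (64924679 to 64933563 and 64952031 to 64960097) and Tlr7 and Tlr8 are neighbors on chromosome X (167304929 to 167330558 and 167242696 to 167264329). Tlr13 is also on X (106143204 to 106160493), Tlr9 and Myd88 on chromosome 9 (106222598 to 106226883 and 119335934 to 119341411), Tlr2 on 3 (83836272 to 83841767), Tlr4 on 4 (66827584 to 66930284) and Tlr3 on 8 (45395665 to 45411080). Tlr1 and Tlr6 are close copies. Of the 50-base windows of Tlr1 transcripts, 13.6% also occur in Tlr6, and 12.3% the other way, so that the division of reads between these genes is uncertain. No other members shared such a window. Myd88 overlaps Acaa1a, on the opposite strand, over 1736 bases of gene body, and Slc22a14, on the same strand, over the whole of Myd88. Slc22a14 was at 0 counts in every primary tumor, and Acaa1a was at 27.8 to 40.0 CPM in the primary tumors and 54.0 CPM in the metastasis.

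The stretch before the start of transcription is shown for the 4 members that were at least 2-fold higher in the metastasis than in the EMT6-PTR tumors and for Tlr9, the member that was at least 2-fold lower. RefSeq start sites of GRCm38.p6 were used, with up to 250 bases before the start, cut where the GENCODE annotation already places an exon. The windows are chr3:83841768-83841858 (minus strand), chr5:64959167-64959416 (minus), chrX:106143025-106143203 (plus), chr9:119340042-119340268 (minus) and chr9:106222348-106222597 (plus). Capitals mark matches to the NF-κB consensus, the core of the interferon response element (GAAA repeated after any 2 bases), the core of the PU.1 element (GAGGAAGT) or the AP-1 consensus (TGANTCA), each searched on both strands.
Tlr2: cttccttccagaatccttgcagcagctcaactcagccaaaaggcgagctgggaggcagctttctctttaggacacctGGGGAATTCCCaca
Tlr6: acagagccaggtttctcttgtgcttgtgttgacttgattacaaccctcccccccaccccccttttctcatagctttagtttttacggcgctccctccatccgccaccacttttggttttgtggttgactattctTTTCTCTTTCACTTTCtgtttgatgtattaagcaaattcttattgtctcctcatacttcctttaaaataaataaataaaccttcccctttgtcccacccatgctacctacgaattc
Tlr13: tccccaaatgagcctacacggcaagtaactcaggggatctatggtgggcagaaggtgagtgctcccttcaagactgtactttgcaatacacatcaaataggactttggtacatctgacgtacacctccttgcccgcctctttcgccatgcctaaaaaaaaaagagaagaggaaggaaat
Myd88: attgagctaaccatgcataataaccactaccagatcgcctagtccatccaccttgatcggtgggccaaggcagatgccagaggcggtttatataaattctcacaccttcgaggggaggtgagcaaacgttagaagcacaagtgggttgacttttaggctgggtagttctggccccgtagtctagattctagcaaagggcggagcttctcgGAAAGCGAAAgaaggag
Tlr9: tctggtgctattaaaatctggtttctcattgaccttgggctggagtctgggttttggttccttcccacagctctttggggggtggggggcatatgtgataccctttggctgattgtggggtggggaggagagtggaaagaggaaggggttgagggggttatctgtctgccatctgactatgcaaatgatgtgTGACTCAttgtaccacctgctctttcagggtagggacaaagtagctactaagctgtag
Tlr2 held matches to the NF-κB consensus that overlap each other, between 173 and 163 bases before the start. Tlr6 held a pair of overlapping matches to the interferon element before the one of its 2 annotated starts that lies inside the gene body, between 116 and 101 bases before it. Myd88 held a single interferon element match between 40 and 31 bases before its start, where the start also lies inside the annotated gene body, and Tlr9 a single AP-1 match between 58 and 52 bases before it. No match was found in the Tlr13 stretch. Windows were given for 8 of the 10 members, Tlr4 and Tlr7 having none, and matches were searched before the windows were cut. Among the members not printed, Tlr3 held an NF-κB match and Tlr1 a PU.1 match. GENCODE places 178 of the 250 bases of the Tlr3 window in an exon of that gene, so its match may lie in transcribed sequence. Over all 32851 windows of 250 bases, 7.25% held the NF-κB consensus, 2.98% the interferon element, 2.44% the PU.1 core and 6.75% the AP-1 consensus, and a match is a string of letters, not a measured binding site.

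Per kilobase of exon, Myd88 and Tlr2 were the highest of the family and Tlr9 among the lowest. In the EMT6-P tumors Myd88 stood at 17.3 ± 1.86 CPM per kb (SD, n = 3), Tlr2 at 13.9 ± 1.27 and Tlr13 at 7.81 ± 1.71, and the ranges of these 3 genes did not overlap. Tlr4, Tlr1, Tlr7 and Tlr3 followed between 3.20 and 3.60 CPM per kb, and neighbors in this order overlapped. Tlr6 (2.48 ± 0.170), Tlr8 (1.72 ± 0.627) and Tlr9 (0.997 ± 0.0628) were lower. The flagellin receptor Tlr5, which is not among the 10 genes, was at 1.09 ± 0.187 CPM per kb, and the profilin receptors Tlr12 and Tlr11 at 0.554 ± 0.160 and 0.00992 ± 0.0172. Tlr11 had 0 to 4 counts in the primary tumors and was not tested. In the EMT6-PTR tumors Tlr2 (16.4 ± 6.96) and Myd88 (14.9 ± 1.46) overlapped, and Tlr7 (5.72 ± 3.36) came next after Tlr13 (8.30 ± 0.821). All neighbors in the EMT6-PTR order overlapped except Myd88 with Tlr13, Tlr4 with Tlr3 and Tlr12 with Tlr11.

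**Figure D1:**
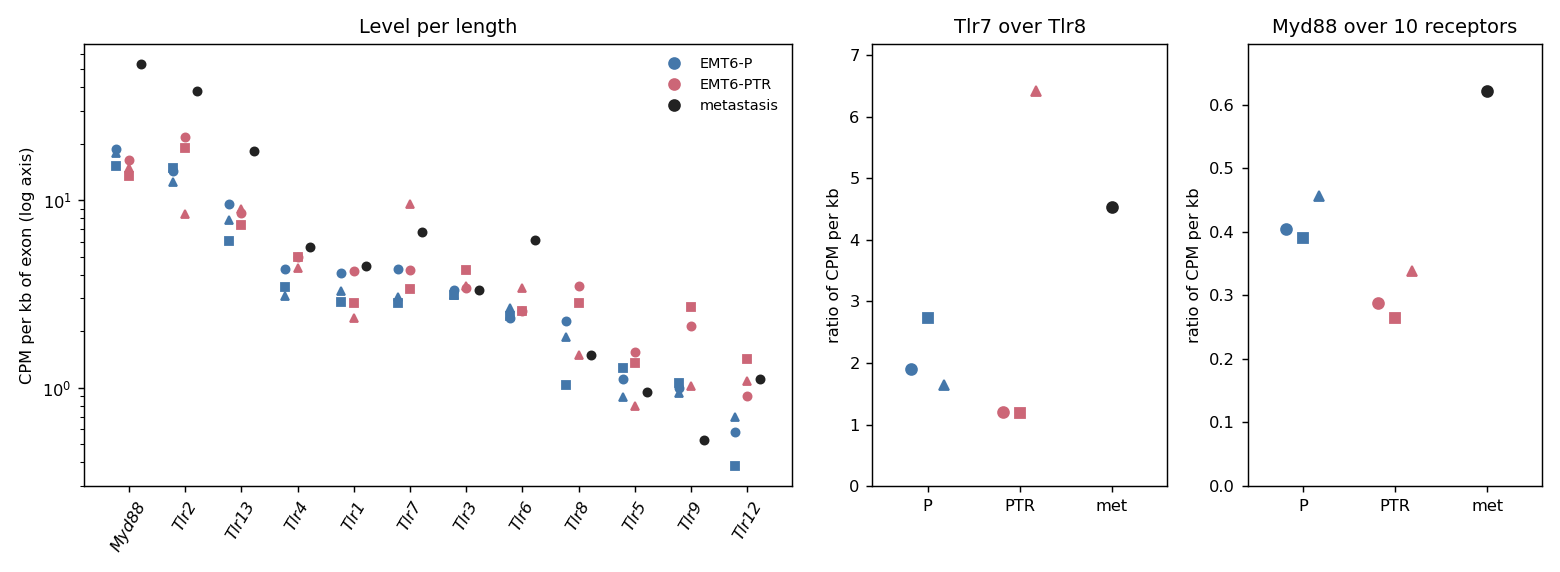
Left: CPM per kilobase of exon on a log axis for each library, genes in the order of the EMT6-P mean (Tlr11 is left out). Middle and right: the ratio of Tlr7 to Tlr8 and of Myd88 to the sum of 10 receptors (Tlr1 to Tlr9 and Tlr13) per library on a linear axis, from CPM per kilobase. Circles, squares and triangles are replicates 1, 2 and 3 and the black point is the metastasis. EMT6-PTR replicate 3 and the metastasis have the highest Tlr7 to Tlr8 ratios, 6.41 and 4.53.

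Setting EMT6-PTR against EMT6-P asks what differs in tumors that grew on under treatment. None of the 10 genes passed an adjusted p of 0.05 (quasi-likelihood test of edgeR, Benjamini-Hochberg over all 15645 genes), and 0.0% of all genes did. DESeq2 and limma-voom called 0 members as well, and DESeq2 called 1.8% of all genes. At an unadjusted p under 0.05 edgeR listed 1 member, Tlr9, and 11.4% of all genes (5.84% higher and 5.57% lower in EMT6-PTR). The log2 fold change was above 0 for 8 members and below 0 for 2, with a median of 0.22, against 52.3% of all genes above 0 and a median of 0.025. All 3 EMT6-PTR values exceeded all 3 EMT6-P values for 2 members, Tlr3 and Tlr4, where 9.52% of all genes did so. Summed over the 10 genes, CPM lay between 183 and 225 in EMT6-P and between 213 and 251 in EMT6-PTR, so that the groups overlapped.

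**Figure D2:**
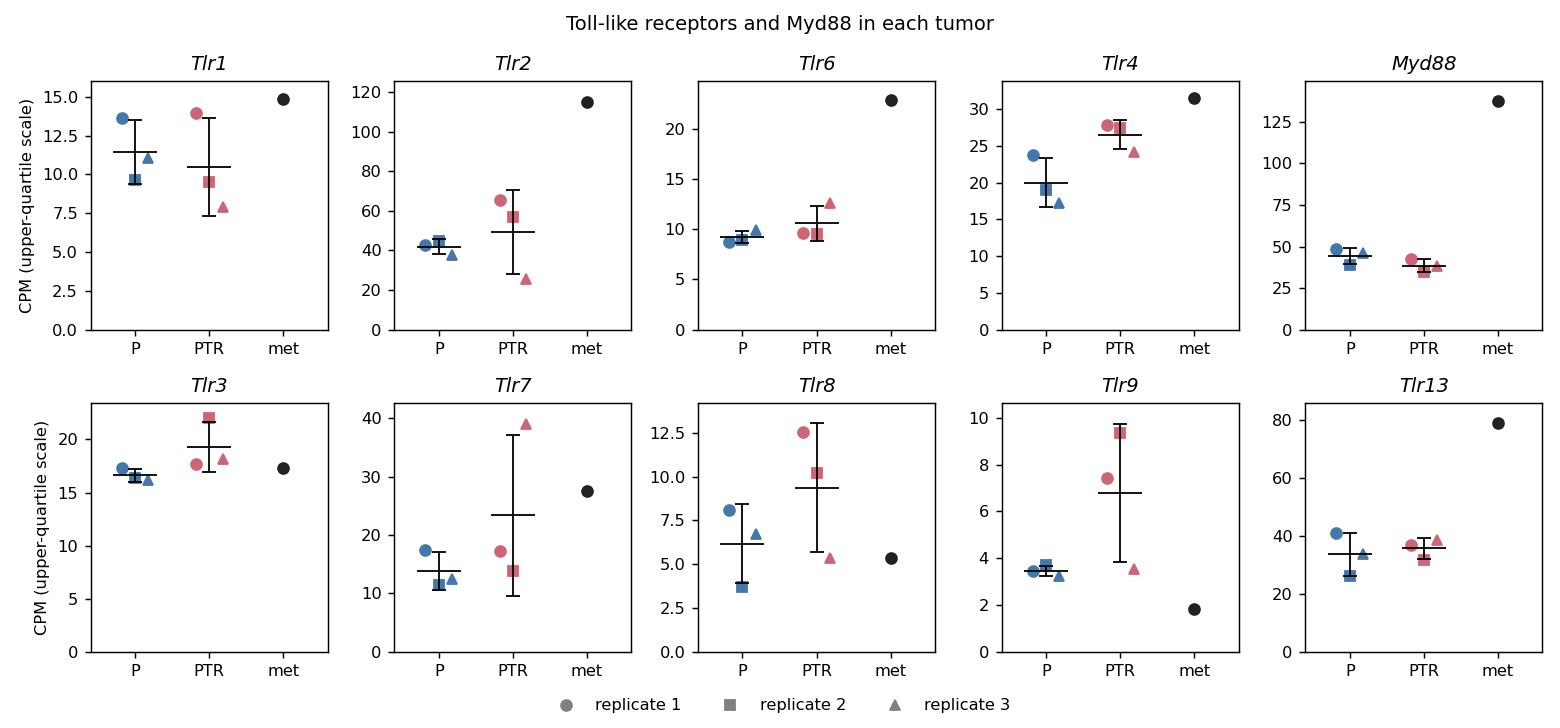
CPM on the upper-quartile scale (linear axis from 0) of each of the 10 genes in the 3 EMT6-P tumors, the 3 EMT6-PTR tumors and the metastasis. Points are libraries, with replicates 1, 2 and 3 as circles, squares and triangles, and bars are mean ± SD (n = 3). Tlr2, Tlr6, Tlr13 and Myd88 are highest in the metastasis and Tlr9 lowest there.

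Among the receptors of the cell surface, Tlr4, which senses lipopolysaccharide, stood at 23.8, 19.1 and 17.2 CPM in EMT6-P replicates 1 to 3 and at 27.8, 27.5 and 24.2 CPM in EMT6-PTR replicates 1 to 3. All EMT6-PTR values were higher, although the lowest of them was close to the highest EMT6-P value. The fitted difference was 0.41 on the log2 scale, with a standard error of 0.17 and an edgeR adjusted p of 0.438. Tlr2, the receptor for bacterial lipopeptides, stood at 43.0, 44.9 and 37.5 CPM in EMT6-P. It was at 65.4 and 57.0 CPM in EMT6-PTR replicates 1 and 2, above every EMT6-P tumor, and at 25.6 CPM in replicate 3, below every one (log2 fold change 0.24, standard error 0.34, adjusted p 0.781, edgeR). Leaving out EMT6-PTR replicate 1 turned this difference to -0.024, and leaving out replicate 3 made it 0.55. Tlr1, a partner of Tlr2 for triacylated lipopeptides, ranged from 9.62 to 13.7 CPM in EMT6-P and from 7.89 to 14.0 CPM in EMT6-PTR. Tlr6, the partner for diacylated lipopeptides, ranged from 8.77 to 9.95 CPM and from 9.52 to 12.6 CPM. The groups overlapped for both partners, and the log2 fold change was -0.13 for Tlr1 (standard error 0.27) and 0.20 for Tlr6 (standard error 0.20). Without EMT6-PTR replicate 3 these became 0.039 and 0.049, and without EMT6-P replicate 1 Tlr1 was at 0.019. Tlr5 stood at 4.29 to 6.07 CPM in EMT6-P and 3.83 to 7.46 CPM in EMT6-PTR.

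Tlr9, the endosomal receptor for unmethylated CpG DNA, stood at 3.46, 3.69 and 3.25 CPM in EMT6-P and at 7.42, 9.36 and 3.56 CPM in EMT6-PTR replicates 1 to 3. Replicates 1 and 2 were thus each more than 2-fold above the EMT6-P mean of 3.47 CPM, while replicate 3 lay inside the EMT6-P range. The log2 fold change was 0.96 (standard error 0.38, p 0.0432, adjusted p 0.433, edgeR), 1.27 without EMT6-PTR replicate 3 and 0.66 without replicate 2. The 7 dendritic cell markers summed to 40.7, 82.4 and 17.2 CPM in EMT6-PTR replicates 1 to 3. In EMT6-P they summed to 31.2 to 43.5 CPM. This sum and Tlr9 shared the order of the EMT6-PTR tumors. The median log2 difference of the 5 tested markers from the EMT6-P mean was 0.16, 1.21 and 0.27 in these tumors. It was lowest in replicate 1, whereas Tlr9 was lowest in replicate 3. In the metastasis the 7 markers summed to 37.6 CPM, inside the EMT6-P range. Of the 5 tested markers 3 were at least 2-fold above the EMT6-PTR mean there and 1 at least 2-fold below. Tlr9 lay below every primary tumor there. The part of dendritic cells in the Tlr9 values was not tested. Tlr8, a receptor for single-stranded RNA and its breakdown products, stood at 8.09, 3.69 and 6.70 CPM in EMT6-P and at 12.6, 10.2 and 5.35 CPM in EMT6-PTR. Replicates 1 and 2 exceeded all EMT6-P tumors and replicate 3 did not (log2 fold change 0.60, standard error 0.42, adjusted p 0.575, edgeR). Leaving out EMT6-PTR replicate 1 lowered it to 0.33, and leaving out EMT6-P replicate 2 lowered it to 0.34. Tlr7, its neighbor on X and likewise a receptor for single-stranded RNA, did the opposite. It stood at 17.5, 11.5 and 12.5 CPM in EMT6-P and 17.2, 13.8 and 39.1 CPM in EMT6-PTR, so that only replicate 3 lay above the EMT6-P range (log2 fold change 0.76, standard error 0.42, adjusted p 0.503, edgeR). Without that tumor its log2 fold change was 0.16.

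The ratio of Tlr7 to Tlr8 per length was 1.64 to 2.74 in the EMT6-P tumors. It was 1.20 and 1.19 in EMT6-PTR replicates 1 and 2, below all EMT6-P tumors, and 6.41 in replicate 3, above all of them. The ratio of Tlr7 to Tlr9 went the same way, with 2.65 to 4.31 in EMT6-P, 1.98 and 1.25 in EMT6-PTR replicates 1 and 2 and 9.36 in replicate 3. These ratios are set within a library and do not depend on its scaling. Fibroblast and carcinoma markers set replicate 3 apart too, as given above, and their part in the ratio was not tested. Its 10 macrophage markers summed to 1190 CPM, against 1428 to 1744 CPM in the other primary tumors. Among these markers Mertk, a receptor for apoptotic cells, was at 29.3 CPM against 4.49 to 11.2 CPM in the other primary tumors, while Adgre1, which encodes F4/80, was at 20.04 CPM against 43.4 to 78.0 CPM. Both were chosen after their values were seen.

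Tlr3, the endosomal receptor for double-stranded RNA, was among the steadiest members. It stood at 17.4, 16.4 and 16.2 CPM in EMT6-P and 17.7, 22.001 and 18.2 CPM in EMT6-PTR, where replicate 2 was the highest (log2 fold change 0.21, standard error 0.16, adjusted p 0.588, edgeR, and 0.11 without that tumor). Tlr13, which senses bacterial ribosomal RNA, stood at 26.3 to 40.9 CPM in EMT6-P and 31.7 to 38.5 CPM in EMT6-PTR, with the second group inside the range of the first (log2 fold change 0.088, standard error 0.19, and -0.064 to 0.25 with single tumors left out). The profilin receptor Tlr12 was low, with 26 to 47 counts in EMT6-P and 66 to 88 counts in EMT6-PTR. It stood at 1.85, 1.21 and 2.22 CPM against 2.88, 4.51 and 3.44 CPM, and all EMT6-PTR tumors were higher (log2 fold change 1.03, standard error 0.35, p 0.024, adjusted p 0.427, edgeR). Plasmacytoid dendritic cells, which are known for Tlr7 and Tlr9, left little RNA: their markers Siglech, Ccr9 and Klk1 summed to 0.236 to 1.56 CPM in the primary tumors, and all 3 were under the filter.

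Myd88 was the member with the lowest log2 fold change, -0.21 (standard error 0.145, adjusted p 0.570, edgeR). It stood at 48.4, 39.2 and 46.0 CPM in EMT6-P and 42.3, 34.8 and 38.3 CPM in EMT6-PTR, and EMT6-PTR replicate 1 overlapped the EMT6-P range. When single tumors were left out, the difference stayed between -0.30 and -0.14. Relative to the summed receptors of the surface (Tlr1, Tlr2, Tlr4, Tlr5 and Tlr6) and of the endosome (Tlr3, Tlr7, Tlr8, Tlr9 and Tlr13) per length, Myd88 was at 0.405, 0.390 and 0.456 in the EMT6-P tumors. The ratio was 0.289, 0.264 and 0.339 in EMT6-PTR, lower in each of the 3 tumors than in any EMT6-P tumor. It was not tested, and no share over other ratios of this kind was computed. Of all single genes 21.3% did not overlap between the groups in either direction, and 11.8% did so with EMT6-PTR lower. The endosomal receptors made up 36.2% to 43.9% of this sum in EMT6-P, 38.4% and 40.1% in EMT6-PTR replicates 1 and 2, and 55.8% in replicate 3.

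**Figure D3:**
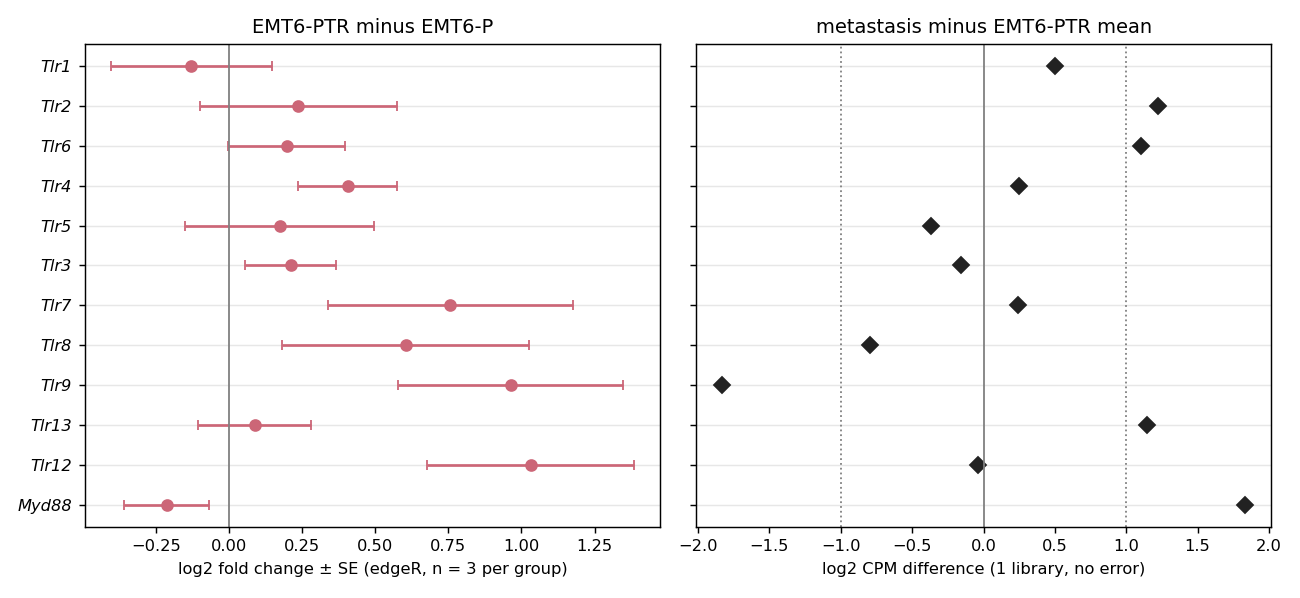
Left: log2 fold change of EMT6-PTR against EMT6-P (points) with its standard error (bars) from edgeR, n = 3 per group, for the 10 genes and for Tlr5 and Tlr12. Right: log2 CPM of the metastasis minus that of the mean of the EMT6-PTR tumors, 1 library without an error, with dotted lines at 2-fold. Tlr12 and Tlr9 have the highest values on the left (1.03 and 0.96), and Myd88 (1.83) and Tlr9 (-1.83) the outermost values on the right.

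The metastasis differed from the primary tumors in the balance of the family. With 1 library there is no test, and the intervals given here (95%, exact Poisson) cover counting error only. The comparison shares its EMT6-PTR tumors with the one above. On a log2 scale with a prior count of 2, 4 members were at least 2-fold above the mean of the EMT6-PTR tumors, where 10.3% of all genes were, and 1 was at least 2-fold below, where 10.6% were. The metastasis exceeded all 6 primary tumors for 6 members, where 20.9% of all genes did so, and lay below all 6 for 1, where 24.1% did. The median log2 difference of the 10 genes was 0.38, against -0.069 over all genes.

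Myd88 was at 137 CPM in the metastasis (interval 133 to 142), 3.57 times the EMT6-PTR mean of 38.5 CPM and above the highest primary tumor at 48.4 CPM. The overlapping gene Acaa1a was lower than Myd88 there, at 54.0 CPM. Tlr2 was at 115 CPM (interval 111 to 119), 2.33 times the EMT6-PTR mean. Tlr13 was at 79.1 CPM (75.6 to 82.7), 2.21 times that mean, and Tlr6 at 22.9 CPM (21.03 to 24.8), 2.16 times it. All 4 genes were thus higher in the metastasis than in any primary tumor. Tlr4 (31.5 CPM, interval 29.3 to 33.8) and Tlr1 (14.9 CPM, 13.4 to 16.5) also exceeded every primary tumor, by smaller margins. Their ratios to the EMT6-PTR mean were 1.19 and 1.42. The interval of Tlr1 includes the value of EMT6-PTR replicate 1, 14.0 CPM. Relative to Tlr6, Tlr1 was at 0.724 per length in the metastasis and 0.697 in EMT6-PTR replicate 3, against 1.11 to 1.73 in the other primary tumors, a ratio that the shared sequence of these genes makes uncertain.

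Of the endosomal receptors Tlr13, given above, was higher than in every primary tumor, and Tlr3, Tlr7, Tlr8 and Tlr9 were not. Tlr9 was at 1.84 CPM in the metastasis, from 46 counts (interval 1.35 to 2.45), below all 6 primary tumors, and the EMT6-PTR mean was 3.69 times higher. Tlr8 was at 5.36 CPM, close to EMT6-PTR replicate 3 at 5.35 CPM. Tlr7 was at 27.6 CPM, between replicate 3 and the other primary tumors, and Tlr3 at 17.3 CPM, inside the range of the EMT6-P tumors. The ratio of Tlr7 to Tlr9 was 12.8, higher than in any primary tumor. Endosomal receptors made up 35.5% of the summed receptors, only slightly under the lowest primary tumor, EMT6-P replicate 2, at 36.2%. The ratio of Myd88 to the receptors was 0.621, higher than in any primary tumor. Without EMT6-PTR replicate 3, the log2 difference was 0.91 for Tlr2 and -1.07 for Tlr8, so that the count of 5 members at least 2-fold apart was the same with Tlr8 in place of Tlr2.

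**Figure D4:**
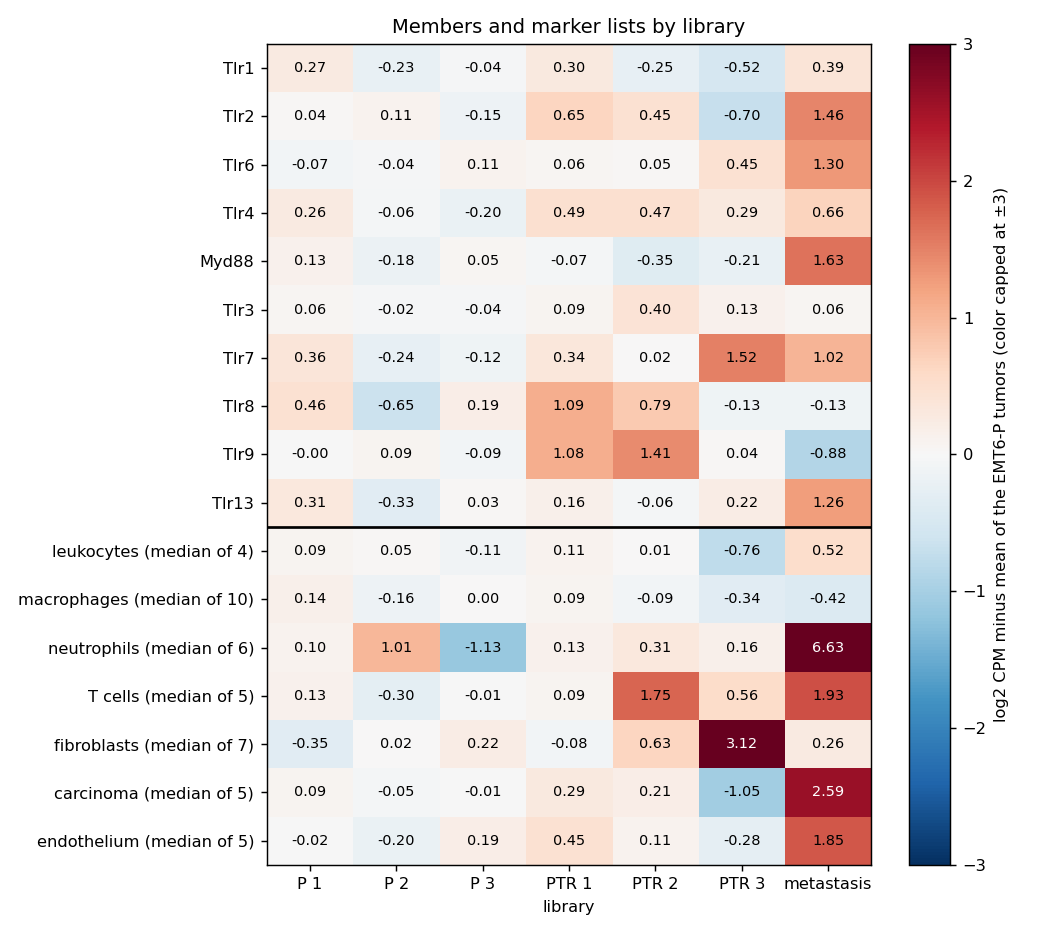
Log2 CPM of each library minus the mean of the 3 EMT6-P tumors, for the 10 genes (upper block) and as the median over the tested genes of 7 marker lists (lower block), with the value in each cell and color capped at ±3. In the metastasis the neutrophil median is 6.63 and the macrophage median -0.42, and Myd88, Tlr2, Tlr6 and Tlr13 lie between 1.26 and 1.63.

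Cell type markers also differed between the metastasis and the EMT6-PTR tumors, some higher and some lower. All 6 tested neutrophil markers were at least 2-fold higher in the metastasis than in the EMT6-PTR tumors. Over all genes 10.3% were at least 2-fold higher there and 10.6% at least 2-fold lower. Ly6g, the 7th neutrophil marker, was at 2.36 CPM in the metastasis and at 0 to 0.140 CPM in the primary tumors. The 5 endothelial markers summed to 657 CPM against 113 to 171 CPM in the primary tumors, with 4 of 5 at least 2-fold higher and Emcn, at 8.51 CPM, at least 2-fold lower and below all 6 primary tumors. The 4 leukocyte markers summed to 668 CPM, against 314 to 569 CPM. Macrophage markers did not rise in this way: 0 of 10 were 2-fold higher or more and 2, Adgre1 and Cx3cr1, were 2-fold lower or more, with a sum of 1178 CPM against 1190 to 1744 CPM in the primary tumors. B cell markers summed to 23.1 CPM against 0.561 to 8.86 CPM. The part of lung tissue and of infiltrating cells in the values of the Toll-like receptors was not tested.

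Genes whose pattern over the 7 libraries was most like a member's were found by the root mean square difference of centered log2 CPM, which describes 7 points and no shared function. For Myd88 these were AB124611, Cd302 and Scarb1 (differences of 0.10 to 0.11, where Myd88 itself had an SD of 0.62). They were Dusp16, Xiap and Itga9 for Tlr2 (all 0.14), 9130019O22Rik, Tbc1d2b and Ppp2r5a for Tlr6 (0.076 to 0.089), and Shld1, Cebpa and Pnpla7 for Tlr13 (0.11 to 0.15). For Tlr7 they were Slc25a35, Mttp and Zfp512b (0.13 to 0.15), for Tlr1 Gngt2, Ctsf and Tspyl3 (0.12 to 0.13), for Tlr4 Ddi2, Gm6159 and Tdrd7 (0.12) and for Tlr3 Ubn1, Ddx24 and Sh3bp1 (0.055 to 0.070). Tlr8 had looser neighbors, Zfp965, Gm9523 and Gm7367 (0.19 to 0.22), of which Gm9523 was low, at 0.19 to 1.00 CPM. For Tlr9 they were Gm38399, an entry without a symbol and Uprt (0.13, 0.15 and 0.22, where Tlr9 itself had an SD of 0.71). Among the members themselves, Tlr6 and Tlr13 were closest (0.21), followed by Tlr3 with Tlr4 (0.24) and Tlr13 with Myd88 (0.26), and Tlr9 and Myd88 were farthest apart (1.24).

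The other genes of the pathway were read from 5 lists. Of 14 coreceptors and trafficking factors none was called in EMT6-PTR against EMT6-P. None had an unadjusted p under 0.05 (edgeR), against 11.4% of all genes. Their log2 fold change was above 0 for 6 and below 0 for 8 (median -0.056). Unc93b1, which escorts the endosomal receptors out of the endoplasmic reticulum, stood at 105 to 125 CPM in EMT6-P and 100.03 to 134 CPM in EMT6-PTR. The smallest p-values belonged to Lbp, Cd36 and Cd14. Lbp, the plasma protein that carries lipopolysaccharide, was at 44.2 to 66.0 CPM in EMT6-P, at 35.1 and 84.5 CPM in EMT6-PTR replicates 1 and 2 and at 578 CPM in replicate 3 (log2 fold change 2.17, standard error 0.98, adjusted p 0.451, edgeR). Without replicate 3 it was 0.20. Cd14, the coreceptor of Tlr4 and Tlr2, was at 71.2 to 96.9 CPM in EMT6-P and 32.4 to 82.6 CPM in EMT6-PTR. In the metastasis 2 of the 14 were at least 2-fold higher than in the EMT6-PTR tumors and 1 lower, against 10.3% and 10.6% of all genes. The lower one was Cd180, a relative of the Toll-like receptors on B cells and myeloid cells, at 3.92 CPM and below all 6 primary tumors. Cd14 was at 717 CPM and the scavenger receptor Cd36, which also serves Tlr2 with Tlr6, at 169 CPM, 11.3 and 12.7 times the EMT6-PTR means, and Lbp at 462 CPM. Ly96, the other coreceptor of Tlr4, was at 4.72 CPM there, and at 4.93 to 6.38 CPM in the primary tumors.

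Among 20 adaptors, kinases and ubiquitin ligases, 19 were tested and none was called. Only 1, Map3k7, had an unadjusted p under 0.05 (edgeR), against 11.4% of all genes. The log2 fold change was above 0 for 14 and below 0 for 5, with a median of 0.21. All EMT6-PTR values lay above all EMT6-P values for 3 genes and below them for 1, against 21.3% of all genes in either direction. Map3k7, the kinase TAK1, stood at 55.1, 58.3 and 58.3 CPM in EMT6-P and 77.1, 61.3 and 79.6 CPM in EMT6-PTR (log2 fold change 0.34, standard error 0.14, p 0.048, adjusted p 0.437, edgeR). Its partner Tab2 was at 109 to 135 CPM and 138 to 155 CPM, also without overlap, and the ubiquitin ligase Traf6 at 31.8 to 44.4 CPM and 41.7 to 68.5 CPM. None of the 19 was at least 2-fold higher in the metastasis and 1, Ticam2, was at least 2-fold lower, against 10.3% and 10.6% of all genes.

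Of 9 transcription factors, Rela had the smallest p. This subunit of NF-κB stood at 90.5, 86.9 and 83.7 CPM in EMT6-P and 77.5, 65.3 and 55.5 CPM in EMT6-PTR, lower in all 3 tumors (log2 fold change -0.40, standard error 0.15, p 0.0392, adjusted p 0.433, edgeR), and at 151 CPM in the metastasis. Irf7, which acts below Tlr7 and Tlr9 toward type I interferon, was at 37.3 to 71.6 CPM in EMT6-P, 55.2, 152 and 84.6 CPM in EMT6-PTR and 45.7 CPM in the metastasis. Irf3, which acts below Tlr3 and Tlr4, was at 33.8 to 38.0 CPM and 26.9 to 36.9 CPM in the 2 groups. None of the 9 was called, where 0.0% of all genes were, and 1 had an unadjusted p under 0.05 (edgeR), where 11.4% did. Among 12 inhibitors none was called either, with 6 log2 fold changes on each side of 0. None of these 12 had an unadjusted p under 0.05 (edgeR). In each of these 2 lists 1 gene lay lower in EMT6-PTR without overlap, where 11.8% of all genes did. Il1rl1, a receptor listed here among the inhibitors although this need not be its main role, was at 16.4, 19.1 and 19.1 CPM in EMT6-P. In EMT6-PTR it was at 13.7, 10.0 and 2.77 CPM, without overlap (log2 fold change -1.04, standard error 0.53, adjusted p 0.479, edgeR). Sigirr stood at 24.4 to 38.5 CPM and 16.5 to 27.2 CPM, and Trafd1 at 49.8 to 56.3 CPM in EMT6-P, 53.7 and 65.2 CPM in EMT6-PTR replicates 1 and 2 and 128 CPM in replicate 3.

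Of 18 target genes of the receptors 15 were tested, and none was called in EMT6-PTR against EMT6-P. None had an unadjusted p under 0.05 (edgeR), against 11.4% of all genes, and the median log2 fold change was 0.076. Lowest in p were Saa3, Nfkbiz and Il6, at 1.37 ± 0.65, 0.59 ± 0.36 and 0.76 ± 0.77 (log2 fold change ± standard error), and the lowest edgeR adjusted p among them was 0.468. Without EMT6-PTR replicate 2 Saa3 was at 0.88 and Il6 at 0.38, and Il6 was at 0.12 with limma-voom. Il6 was at 0.43 without EMT6-PTR replicate 1 and 1.28 without replicate 3, and Nfkbiz at 0.96 without EMT6-P replicate 2. In the metastasis 12 of the 15 were at least 2-fold above the EMT6-PTR mean and 1, Ptgs2, was at least 2-fold below, where 10.3% and 10.6% of all genes were. The median log2 difference was 3.99. The acute-phase gene Saa3 was at 335 CPM, against 5.11 to 33.1 CPM in all 6 primary tumors, and the NF-κB regulator Nfkbiz at 135 CPM against 19.7 to 50.7 CPM. Il6 was at 95.2 CPM against 0.274 to 2.78 CPM. Il1b, at 1259 CPM against 2.34 to 65.8 CPM, and the neutrophil chemokine Cxcl2, at 816 CPM against 1.41 to 12.9 CPM, were chosen after their values were seen. So were the feedback inhibitors Tnfaip3 and Nfkbia, at 416 and 694 CPM in the metastasis against 30.2 to 87.6 CPM and 73.8 to 155 CPM. Of the 12 inhibitors, 5 were at least 2-fold higher there and 1 lower, against 10.3% and 10.6% of all genes. These values come from 1 library. The part of receptor signaling, of neutrophils and other cells and of lung tissue in them was not tested.

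**Figure D5:**
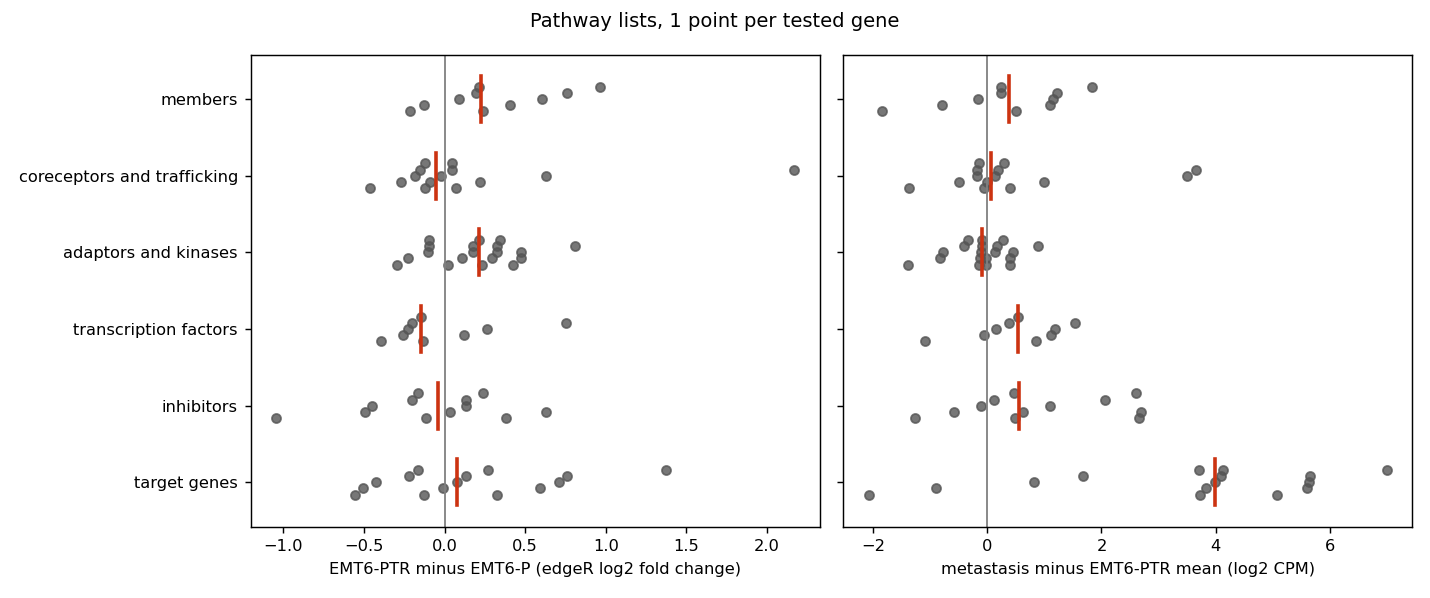
Log2 differences of the tested genes of 6 lists (1 point per gene, red line the median): EMT6-PTR against EMT6-P from edgeR on the left, and the metastasis against the mean of the EMT6-PTR tumors on the right. On the left the medians lie between -0.14 and 0.22. On the right the target genes have a median of 3.99 and the adaptors and kinases one of -0.093.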

How the data were processed

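Bulk RNA sequencing covered 7 libraries: EMT6-P and EMT6-PTR (n = 3 each) and a metastasis (n = 1). The authors aligned stranded polyA libraries with STAR 2.6.0a to GRCm38 (GENCODE M16) and deposited estimated counts per gene from RSEM 1.3.1, without filter or normalization. Whether RSEM was set to use strand is not given in the sources used here. Identifiers were matched to symbols and exon lengths in GENCODE M21 (53274 of 53465).

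Counts were rounded, filtered with filterByExpr, given upper-quartile factors and fitted in edgeR 4.0.16 in R 4.3.3 (glmQLFit, glmQLFTest), EMT6-PTR against EMT6-P, with Benjamini-Hochberg adjustment over 15645 genes. A standard error is the log2 fold change divided by the square root of F. CPM of the 7 libraries share 1 set of factors on these genes. The fits were run on simulated data with the same dispersion in both groups, below the 0.140 fitted to EMT6-P and EMT6-PTR together. That simulation does not show how the fits perform with groups that vary as unequally as these. Members and lists were chosen with earlier results of these data known. Named are the 10 members, Tlr5, Tlr11, Tlr12, the 3 smallest p of each pathway list and the 3 nearest patterns per member. Genes named as examples beyond that, such as Unc93b1, Ly96, Ptgs2, Ticam2 and single markers, were chosen after their values were seen. Alternatives were TMM factors, DESeq2 1.42.0, limma-voom (limma 3.58.1), other filters and prior counts, the metastasis in the fit, a replicate block and leaving out each tumor.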

Additional observations from a re-analysis of the deposited data

How the results depend on the processing

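The count of genes called between EMT6-PTR and EMT6-P was 0 with edgeR under every filter, scaling and left-out tumor tried and with limma-voom, and 281 with DESeq2. The cause was not tested. No member was called under any of these settings. The EMT6-PTR tumors varied more (common dispersion 0.246) than the EMT6-P tumors (0.0266), and Tlr9 and Tlr12 rest on the lowest counts. Of the 10 members, 1 had an unadjusted p under 0.05, and 4 did without EMT6-PTR replicate 3, where the number over all genes also rose, from 1786 of 15645 to 3234 of 15941. Directions that turned did so with 1 tumor left out: on the log2 scale the difference ran from -0.40 to 0.039 for Tlr1, from -0.024 to 0.55 for Tlr2, from -0.064 to 0.25 for Tlr13 and from -0.033 to 0.41 for Tlr5. Without EMT6-PTR replicate 3, Tlr7 fell from 0.76 to 0.16, Lbp from 2.17 to 0.20, Traf6 from 0.48 to 0.22 and Trafd1 from 0.63 to 0.16, while Il1rl1 moved from -1.04 to -0.62, Sigirr from -0.49 to -0.32, Cd14 from -0.47 to -0.15 and Irf3 from -0.21 to -0.11. Without EMT6-PTR replicate 2 Irf7 fell from 0.75 to 0.28, and without replicate 1 Cd36 fell from 0.63 to 0.19 and Cd14 and Irf3 were at -0.71 and -0.35. The count of members at least 2-fold apart in the metastasis was 5 under every setting tried.

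With the replicate number as a block, 0 genes and 0 members were called, and 1268 genes had an unadjusted p under 0.05 against 1786, while Il6 moved from 0.76 to 0.36. Same-numbered EMT6-P and EMT6-PTR libraries correlated in their deviations from the group means at 0.25, 0.22 and 0.088, each library most with its own number, but the labels name no shared litter, batch or day, so the block is given here only.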
